A study of Mus musculus with 13 samples.

Results

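The values of 10 genes of the cellular oxygen response were followed in mouse mammary gland, out of 23951 gene symbols measured. They are the prolyl hydroxylases Egln1, Egln2 and Egln3, the hypoxia-inducible factor (HIF) subunits Hif1a and Epas1, and the HIF targets Vegfa, Bnip3, Adm, Ndrg1 and Ankrd37. Egln3 was chosen by its FPKM in knockout and control glands at involution, where it had been noted as higher in knockouts. The others were added as its family or as known HIF targets. All 10 symbols were present in both deposited expression tables, and each has a value in all 13 libraries.

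RNA was taken from whole, flash-frozen mammary glands of female mice carrying a conditional knockout of the tyrosine kinase gene Jak1, or of wildtype controls. JAK1 passes on signals of interferons and of cytokines of the interleukin 6 class, and the study addressed its part in cytokine signalling and in remodelling of the gland. Libraries are named by M and the mouse's number. Day 7 of lactation is represented by the controls M42186, M43768, M44175 and the knockouts M44174, M42734, M43767 (n = 3 each). Day 2 of involution is represented by the controls M44448, M43768, M43914 (n = 3) and the knockouts M43196, M43767, M44176, M44440 (n = 4). Within each group, values below follow this order. Strain, age, the Cre driver of the knockout and the cells that lost Jak1 were not given in the sources used here. Mouse numbers M43768 and M43767 stand at both stages, and whether each marks 1 animal was not tested. Values are FPKM, mapped fragments scaled for transcript length and for the size of the library.

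The EGLN enzymes (also called PHD proteins) hydroxylate prolines in HIF alpha subunits when oxygen is present, which marks these subunits for ubiquitination by the VHL complex and for degradation. When oxygen is low, HIF-1α and HIF-2α, the latter encoded by Epas1, persist and pair with ARNT to activate genes of glycolysis, vessel growth and mitophagy. Egln3 and Egln1 are themselves HIF targets. In the mouse mammary gland HIF-1α is known for its role in the secretory differentiation of the epithelium. Involution is the regression of the gland after suckling stops, with death of milk-producing cells and return of fat tissue.

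HIF dimers bind DNA at a short core that reads ACGTG or GCGTG, and promoter sequence was available for 8 of the 10 genes, in 10 windows. Each window runs from 250 bases before to 50 after a start site (RefSeq, build GRCm38.p6). ACGTG was found on either strand in 7 of the 10 windows, against 19.6% of 32851 windows of all genes. By gene it was found in 7 of the 8, against 21.8% of 27025 symbols. GCGTG was found in 7 of the 10 windows, against 32.4% of all windows. Both strands were searched, and CACGTG counts as a match on each. Known HIF targets were among the genes chosen, and the windows were not matched for GC content, so these counts are a description. The window of the first start site of Vegfa held neither. The upstream part of 4 promoters is shown for the 3 hydroxylases and for the target Bnip3, whose window held the palindrome CACGTG and 3 GCGTG matches. Capitals mark ACGTG or GCGTG on either strand, and positions count back from the start site, with -1 as the last base shown.
Egln1, chr8:124949255-124949504, minus strand: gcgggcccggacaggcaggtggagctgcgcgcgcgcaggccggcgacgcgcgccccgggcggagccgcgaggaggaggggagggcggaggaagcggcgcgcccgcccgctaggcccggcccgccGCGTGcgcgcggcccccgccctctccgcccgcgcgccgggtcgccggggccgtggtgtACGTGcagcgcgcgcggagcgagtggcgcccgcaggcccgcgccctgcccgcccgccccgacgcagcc
Egln2, first start site, chr7:27166803-27167052, minus strand: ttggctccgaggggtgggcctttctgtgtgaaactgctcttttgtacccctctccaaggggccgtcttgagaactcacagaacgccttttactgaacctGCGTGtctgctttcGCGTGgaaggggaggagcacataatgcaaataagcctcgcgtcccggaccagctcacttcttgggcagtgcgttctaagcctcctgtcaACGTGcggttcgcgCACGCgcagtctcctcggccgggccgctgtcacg
Egln3, chr12:54203875-54204124, minus strand: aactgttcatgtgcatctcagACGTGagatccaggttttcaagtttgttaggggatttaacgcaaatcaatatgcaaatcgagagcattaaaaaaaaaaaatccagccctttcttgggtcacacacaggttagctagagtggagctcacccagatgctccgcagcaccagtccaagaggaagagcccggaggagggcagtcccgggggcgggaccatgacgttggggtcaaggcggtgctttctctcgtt
Bnip3, chr7:138909507-138909756, minus strand: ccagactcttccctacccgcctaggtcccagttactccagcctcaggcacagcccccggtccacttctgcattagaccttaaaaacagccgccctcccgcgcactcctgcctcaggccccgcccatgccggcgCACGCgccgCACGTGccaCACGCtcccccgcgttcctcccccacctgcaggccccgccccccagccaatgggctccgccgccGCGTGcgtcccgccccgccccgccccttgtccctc
The Egln3 stretch held 1 ACGTG, at -229, and no GCGTG. The Egln1 stretch held 1 ACGTG, at -68, and the Egln2 stretch 1, at -48. In Bnip3 the palindrome CACGTG gave a match on both strands. A match is a description of letters and was not tested as a binding site.

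Some facts of the whole series bear on these values. Relative to the mean of its table, library depth was estimated at 0.723 to 1.29 at lactation and at 0.485 to 1.502 at involution. Control M44175 stood apart at lactation by FPKM summing to 871630, against 312976 to 421592 in the other lactation libraries. Its depth was the lowest there, close to that of control M43768 (0.751). At involution knockout M43196 had the lowest depth, 0.485 against 0.695 to 1.502 in the others. Its FPKM summed to 1367558, against 590437 to 958496, and Mir6236 made up 44.0% of that sum. M43196 also had the highest Egln3 (14.3 FPKM) and Adm (6.78 FPKM), and the part of depth in these values was not tested. Jak1 itself was 14.2, 14.0 and 6.18 FPKM in lactation controls and 9.51, 10.2 and 11.2 in lactation knockouts. At involution Jak1 was 24.3, 24.0 and 24.6 FPKM in controls and 23.0, 22.2, 26.3 and 17.3 in knockouts. The ranges overlapped at both stages, with log2 differences of 0.00 ± 0.35 (SE, limma, adjusted p = 0.999) and -0.12 ± 0.17 (adjusted p = 0.989). The lactation overlap came from control M44175 (6.18), and without that library all knockouts lay below the controls, with a difference of -0.41 ± 0.17 that did not pass the adjusted threshold. The involution overlap came from knockout M44176 (26.3), and without that library the difference was -0.20 ± 0.17, also not past the threshold. Leaving out these libraries is a check of the labels chosen with their values seen, and the genotype of a library is taken from its label. Which exons were removed was not given in the sources used here. Of 11 luminal epithelial markers, which check the labelled tissue, Wap was listed at 0 in every library and Csn3 in every lactation library. An exact 0 in these tables can be a failed estimate, so the zeros of Wap and Csn3 may not be levels. The sum of the list, with these zeros in it, ran from 6596 to 35357 FPKM. In whole tissue, fewer cells of a type and less RNA per cell cannot be told apart.

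Egln3 lay higher in every knockout gland than in any control gland at involution, and this is the value by which it was chosen. Egln3 was 3.83, 3.90 and 3.84 FPKM in the involution controls M44448, M43768 and M43914. It was 14.3, 8.39, 12.5 and 10.2 FPKM in the knockouts M43196, M43767, M44176 and M44440. The controls lay within a narrow band (3.85 ± 0.0384, SD, n = 3), and the lowest knockout lay well above it (knockout mean 11.3 ± 2.57, SD, n = 4). On the log2(FPKM + 1) scale the knockouts were 1.34 higher, the 70th largest positive difference of 12509 genes. This difference is 2.54-fold in rescaled FPKM + 1, which understates the fold in FPKM itself. Over 16 alternative settings the difference ran from 1.23 to 1.53. These figures describe the choice of Egln3 and no test is given for them.

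**Figure D1:**
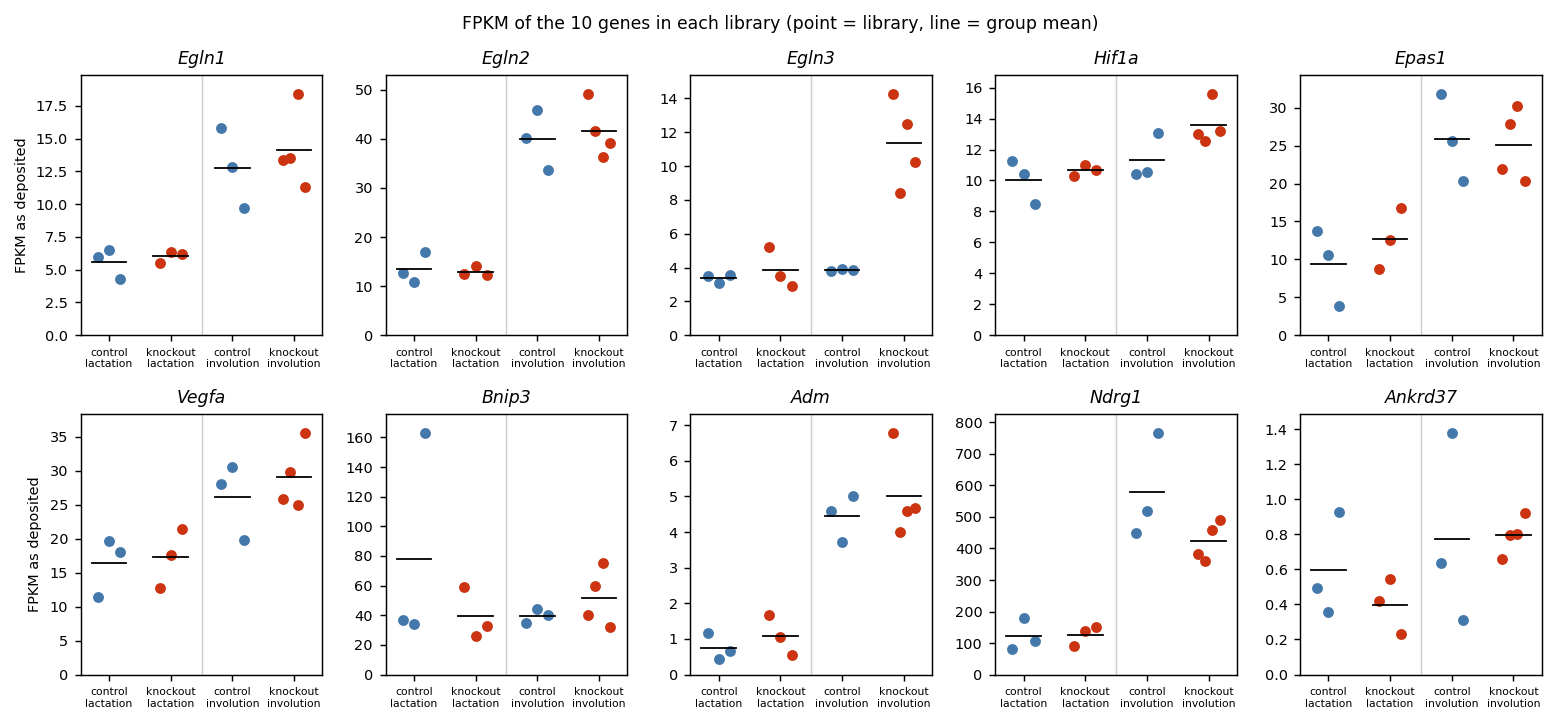
FPKM as deposited (vertical axes, from 0, own scale for each gene) of the 10 genes in each library, with control libraries in blue, knockout libraries in red and a line at each group mean. Egln3 is the gene whose 4 involution knockouts (8.39 to 14.3) all lie above the 3 controls (3.83 to 3.90), and the Bnip3 panel shows control M44175 at 163.

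At lactation Egln3 did not separate the genotypes. It was 3.499, 3.09 and 3.58 FPKM in controls M42186, M43768 and M44175, and 5.20, 3.47 and 2.93 FPKM in knockouts M44174, M42734 and M43767. The knockouts lay on both sides of the controls, with a log2 difference of 0.18 ± 0.22 (SE, limma, adjusted p = 0.998) and a 95% interval from -0.33 to 0.68. The highest of them, M44174, also had the highest skeletal muscle marker sum of the stage (1000 FPKM, against 1.25 to 225 in the others), and the part of muscle tissue in its value was not tested. Without M44174 the log2 difference was -0.01.

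Egln1 encodes PHD2, regarded as the main oxygen sensor of the family. It was 5.97, 6.52 and 4.31 FPKM in lactation controls and 5.55, 6.38 and 6.18 in lactation knockouts. At involution Egln1 was 15.8, 12.9 and 9.71 FPKM in controls and 13.4, 13.6, 18.4 and 11.3 in knockouts. The groups overlapped at both stages, with log2 differences of 0.16 ± 0.23 (SE, limma, adjusted p = 0.998) and 0.16 ± 0.22 (adjusted p = 0.982). The 95% interval at involution ran from -0.34 to 0.66.

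Egln2 encodes PHD1 and was the most abundant of the 3 in every library. It was 12.8, 10.8 and 16.9 FPKM in lactation controls and 12.6, 14.0 and 12.2 in lactation knockouts. At involution Egln2 was 40.2, 45.8 and 33.7 FPKM in controls and 49.2, 41.7, 36.2 and 39.2 in knockouts. Knockouts and controls were interleaved at both stages, with log2 differences of 0.03 ± 0.21 (SE, limma, adjusted p = 0.998) and 0.08 ± 0.17 (adjusted p = 0.996). The 95% interval at involution ran from -0.32 to 0.49.

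The make-up of the hydroxylase family differed between the genotypes at involution through Egln3, whose values chose it. FPKM are per length, so the 3 genes can be set against each other as levels. Egln2 made up 52.9% to 73.2% of the summed FPKM of the 3 genes over the 13 libraries. Egln3 made up 14.4% to 15.7% in lactation controls and 13.8% to 22.3% in lactation knockouts. At involution its share was 6.22% to 8.13% in controls and 13.2% to 18.6% in knockouts. The involution controls had the lowest Egln3 shares of all 13 libraries, and these shares hold the values by which Egln3 was chosen. The sum of the 3 genes was 47.2 to 62.6 FPKM in involution controls and 60.7 to 76.8 in involution knockouts, which overlap.

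**Figure D2:**
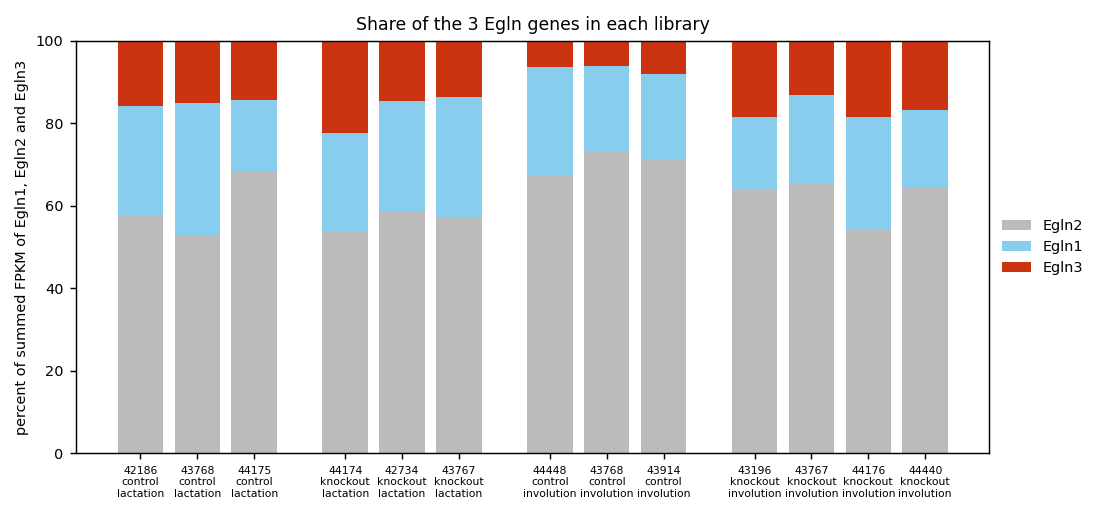
Percent of the summed FPKM of Egln1, Egln2 and Egln3 held by each gene (vertical axis, 0 to 100) in each of the 13 libraries, labelled by mouse number, genotype and stage. The red Egln3 segment is 6.22% to 8.13% in involution controls and 13.2% to 18.6% in involution knockouts.

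Hif1a, which encodes the HIF-1α subunit degraded after hydroxylation, showed no separation of the genotypes. It was 11.2, 10.4 and 8.47 FPKM in lactation controls and 10.3, 11.02 and 10.7 in lactation knockouts. At involution Hif1a was 10.4, 10.6 and 13.04 FPKM in controls and 12.99, 12.5, 15.6 and 13.2 in knockouts. Control M43914 lay within the range of the knockouts, while the other controls lay below it. The log2 difference was 0.14 ± 0.22 at lactation (SE, limma, adjusted p = 0.998) and 0.27 ± 0.14 at involution (unadjusted p = 0.0971, adjusted p = 0.873). The interval at involution ran from -0.06 to 0.59.

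Epas1, which encodes HIF-2α and is known to be abundant in endothelial cells, was the more variable subunit at lactation. It was 13.8, 10.6 and 3.89 FPKM in lactation controls and 8.72, 12.6 and 16.8 in lactation knockouts. Its lowest value was in control M44175, the library that stood apart. At involution Epas1 was 31.8, 25.6 and 20.4 FPKM in controls and 21.9, 27.9, 30.3 and 20.3 in knockouts, with full overlap. The log2 differences were 0.55 ± 0.47 at lactation (SE, limma, adjusted p = 0.998) and -0.02 ± 0.22 at involution (adjusted p = 0.998). The lactation value was 0.03 without M44175.

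Vegfa encodes the main growth factor for blood vessels and is a classical HIF target. It was 11.4, 19.7 and 17.96 FPKM in lactation controls and 12.7, 17.5 and 21.4 in lactation knockouts. At involution Vegfa was 28.002, 30.5 and 19.8 FPKM in controls and 25.9, 29.8, 24.9 and 35.5 in knockouts. The genotypes overlapped at both stages, with log2 differences of 0.14 ± 0.29 (SE, limma, adjusted p = 0.998) and 0.18 ± 0.20 (adjusted p = 0.974).

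Bnip3 encodes a mitochondrial outer membrane protein that promotes mitophagy. It was 36.8, 34.1 and 163 FPKM in lactation controls and 59.4, 26.3 and 32.7 in lactation knockouts. The value of 163 belongs to control M44175, and it was the highest of all 13 libraries. That library also had the highest erythrocyte marker sum of the stage, 327 FPKM against 31.3 to 178, and the part of blood in its Bnip3 value was not tested. The log2 difference at lactation was -0.59 ± 0.57 (SE, limma, adjusted p = 0.998), and 0.08 without M44175. At involution Bnip3 was 34.5, 44.2 and 40.2 FPKM in controls and 40.1, 59.4, 75.2 and 32.1 in knockouts. The knockouts reached both below and above the controls there, with a log2 difference of 0.33 ± 0.29 (adjusted p = 0.959) and an interval from -0.34 to 1.00. It was 0.13 without knockout M44176 and 0.53 without knockout M44440.

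Adm encodes adrenomedullin, a vasodilator peptide induced by HIF. It was 1.18, 0.425 and 0.663 FPKM in lactation controls and 1.68, 1.05 and 0.547 in lactation knockouts, so at that stage it passed the filter on low values (at least 1 FPKM in 3 libraries) with no library to spare. At involution Adm was 4.59, 3.73 and 5.02 FPKM in controls and 6.78, 4.00, 4.60 and 4.67 in knockouts. Only knockout M43196 lay above the controls. The log2 differences were 0.26 ± 0.26 (SE, limma, adjusted p = 0.998) at lactation and 0.15 ± 0.18 (adjusted p = 0.974) at involution. The involution value was 0.02 without M43196.

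Ndrg1, a gene induced by hypoxia and by differentiation, was the most abundant of the 10. It was 82.6, 179 and 105 FPKM in lactation controls and 91.4, 138 and 151 in lactation knockouts. At involution Ndrg1 was 451, 518 and 766 FPKM in controls and 382, 360, 458 and 492 in knockouts. The highest control, M43914, lay above every knockout, while the other controls overlapped them. The log2 differences were 0.16 ± 0.37 (SE, limma, adjusted p = 0.998) at lactation and -0.40 ± 0.24 (unadjusted p = 0.136, adjusted p = 0.905) at involution. The interval at involution ran from -0.96 to 0.16, and the difference was -0.19 without control M43914.

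Ankrd37, an ankyrin repeat gene known as a HIF-1 target, stayed below the filter on low values at both stages and was not tested. It was 0.494, 0.358 and 0.929 FPKM in lactation controls and 0.418, 0.545 and 0.230 in lactation knockouts. At involution Ankrd37 was 0.635, 1.38 and 0.313 FPKM in controls and 0.657, 0.798, 0.801 and 0.920 in knockouts, within the control range. In the reference gene annotation used here Ankrd37 overlaps the protein-coding gene Ufsp2, which had 11.7 to 22.8 FPKM in these libraries. How reads in the shared stretch were assigned was not given in the sources used here, so the level of Ankrd37 is uncertain. In the same annotation Egln1, Hif1a and Adm each overlap 1 long noncoding RNA gene and Bnip3 overlaps 1 pseudogene, and whether the counting used strand was not given in the sources used here.

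None of the 9 genes tested at lactation passed the adjusted threshold of 0.05 (limma, 0.0105% of 9560 genes did), and none had an unadjusted p under 0.05 (2.38% of all genes did). At lactation none of the 9 had groups that did not overlap, against 6.06% of all genes. Their log2 differences ran from -0.59 to 0.55 with a median of 0.16, beside a median of 0.01 over all genes, and 8 of 9 were positive. Without control M44175 the median was 0.08 with 7 of 9 positive. At involution, leaving out Egln3, 0 of 8 passed (0.0719% of 12509 genes did) and 0 had an unadjusted p under 0.05 (6.84% of all genes did). None of these 8 had groups that did not overlap, against 7.09% of all genes. Their differences ran from -0.40 to 0.33 with a median of 0.16, beside 0.01 over all genes, and 6 of 8 were positive. Without control M43914 the median was -0.02 with 3 of 8 positive, so the sign of the group rests on that library.

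**Figure D3:**
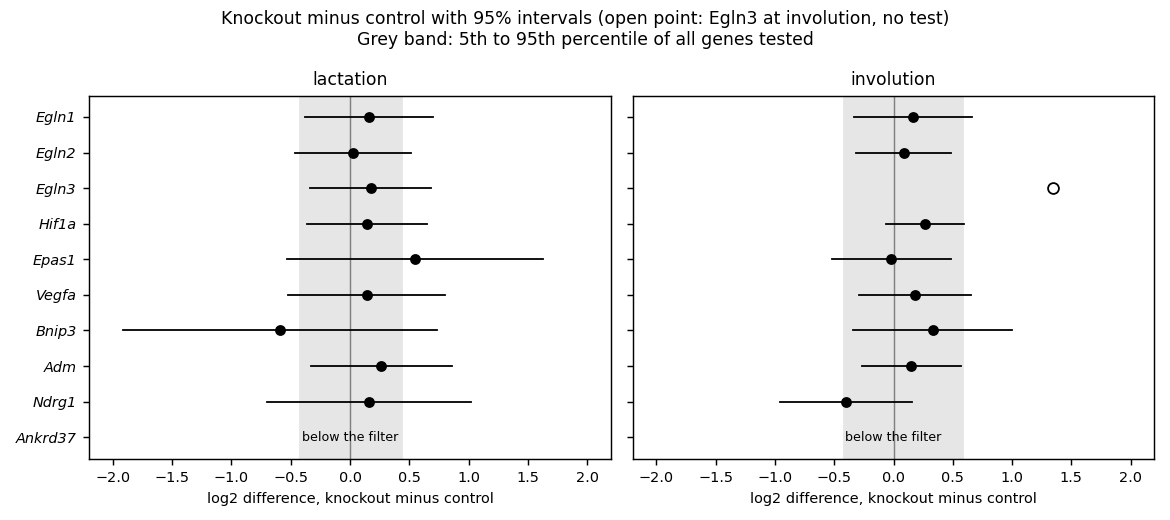
Log2 difference of knockout minus control (horizontal axis) for each gene at lactation (left) and involution (right), with 95% intervals as bars and a grey band from the 5th to the 95th percentile of all genes tested. Egln3 at involution is an open point at 1.34 with no interval, and every interval drawn crosses 0.

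The knockout effect at involution minus that at lactation was 1.17 for Egln3, a description for the same reason as above. Of the other 8 genes none passed the adjusted threshold in the joint fit of 13 libraries (limma, 0.0789% of 12667 genes did), and none had an unadjusted p under 0.05 (3.35% of all genes did). Bnip3 was at 0.92 ± 0.68 (SE, adjusted p = 0.999). Epas1 was at -0.57 ± 0.54 and Ndrg1 at -0.56 ± 0.44, each with the same adjusted p of 0.999. Without lactation control M44175 the values were 0.25 for Bnip3 and -0.0473 for Epas1, so both rest largely on that library. The 95% intervals of these 3 genes were wide, from -0.56 to 2.41 for Bnip3, from -1.74 to 0.61 for Epas1 and from -1.51 to 0.39 for Ndrg1.

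Levels of the stages are set side by side without a test, because the tables may have been normalized separately. For 5 of the 10 genes, Egln1, Egln2, Epas1, Adm and Ndrg1, every involution library lay above every lactation library, as it did for 64.8% of all genes. For none of the 10 did every involution library lie below, as it did for 1.42% of all genes. Ndrg1 spanned 82.6 to 179 FPKM at lactation and 360 to 766 at involution. Egln2 spanned 10.8 to 16.9 FPKM at lactation and 33.7 to 49.2 at involution. Adm spanned 0.425 to 1.68 FPKM at lactation and 3.73 to 6.78 at involution. Ranks within a library depend less on scaling, and there these genes did not separate the stages.

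By rank within a library, among the 9 genes other than Ankrd37, only Hif1a separated the stages. It lay above 72.4% to 81.3% of genes in lactation libraries and above 57.2% to 68.2% in involution libraries, and 14.0% of all genes separated in this direction. The other 8 genes overlapped between the stages. Egln3 lay above 30.0% to 31.5% of genes in involution controls and above 50.9% to 66.1% in involution knockouts. In lactation libraries of both genotypes Egln3 lay above 50.8% to 65.3% of genes. The involution ranks hold the values by which Egln3 was chosen and are a description.

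Within a group the order of the mean levels was led by Ndrg1 in all 4 groups, and its range overlapped with that of the next gene, Bnip3, only in lactation controls. Ankrd37 was lowest in all 4 groups. Egln3 was eighth in both lactation groups, with a range apart from both neighbours, Egln1 above and Adm below. In involution controls Egln3 was ninth, overlapping with Adm above it, and in involution knockouts eighth, overlapping with Hif1a above it. Egln2, Bnip3, Vegfa and Epas1 filled the places from the second to the fifth at involution, with Egln2 and Bnip3 overlapping and Vegfa and Epas1 overlapping.

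The wider HIF pathway was described with 6 lists of genes, and in every list no gene passed the adjusted threshold at either stage. Of 19 HIF subunits and regulators such as Arnt, Vhl, Hif1an and Cul2, 17 were tested at each stage, with median log2 differences of 0.03 at lactation and -0.04 at involution. Unadjusted p under 0.05 was reached by 0 of them at lactation and by 2 at involution, both negative, beside 2.38% and 6.84% of all genes at the respective stages. Os9, whose product is reported to bind HIF-1α and the EGLN enzymes, was 45.6, 56.7 and 42.6 FPKM in involution controls and 41.1, 33.7, 36.9 and 29.1 in knockouts. The knockouts all lay below the controls, as in 4.42% of all genes, with a difference of -0.42 ± 0.18 (SE, limma, adjusted p = 0.711).

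Of 12 other prolyl and lysyl hydroxylases, which act mostly on collagen, 8 were tested at lactation and 10 at involution. Their median differences were 0.19 (0.02 without control M44175) and 0.07 (-0.04 without knockout M44176). Among those tested none reached an unadjusted p under 0.05 (limma), beside 2.38% of all genes at lactation and 6.84% at involution. None had groups apart, beside 6.06% and 7.09% of all genes, so for so few genes these counts lie near the shares of all genes. At involution the 10 differences ran from -0.52 to 0.34.

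Of 24 HIF targets of glucose uptake and glycolysis, 20 were tested at lactation and 23 at involution. At lactation 18 of 20 were positive with a median of 0.34, beside a median of 0.01 over all genes, and at involution 15 of 23 with a median of 0.16. The lactation count rested on control M44175, since without it 12 of 20 were positive with a median of 0.07. Without knockout M44176 the involution count was 9 of 22 with a median of -0.05. Gbe1, the glycogen branching enzyme, was the gene apart at lactation, at 3.06 to 3.76 FPKM in controls and 4.18 to 4.33 in knockouts (0.30 ± 0.18, SE, limma, adjusted p = 0.998). Pfkp, a phosphofructokinase, was the gene apart at involution, at 4.64 to 7.68 FPKM in controls and 8.498 to 9.73 in knockouts (0.52 ± 0.17, adjusted p = 0.599). Groups with knockouts all above controls made up 2.89% of all genes at lactation and 2.67% at involution. Several genes of this list, such as Pfkm and Aldoa, are abundant in muscle, whose marker sum spanned 14.1 to 5107 FPKM at involution, and its part in the list was not tested.

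Of 35 other HIF targets, 28 were tested at lactation and 32 at involution, with medians of 0.03 and -0.06. At lactation Ddit4, a stress-induced inhibitor of mTORC1, was 11.1 to 17.7 FPKM in controls and 5.97 to 10.1 in knockouts, which did not overlap, as in 3.17% of all genes with knockouts lower (-0.57 ± 0.28, SE, limma, adjusted p = 0.998). Lox, which cross-links collagen, was 0.293 to 0.911 FPKM in lactation controls and 1.07 to 1.61 in knockouts. Every control was under 1 FPKM, so Lox passed the filter on low values only through the group where it is higher, and no test of it is given. At involution Angptl4, an inhibitor of lipoprotein lipase that HIF and PPARs induce, was 714, 609 and 1131 FPKM in controls. It was 323, 186, 455 and 480 FPKM in the knockouts, all below the controls, with a difference of -1.19 ± 0.38 (adjusted p = 0.563). Angptl4 was picked from its list because its groups lay apart, and its difference did not pass the adjusted threshold.

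Of 17 VEGF and adrenomedullin signalling partners, 10 were tested at lactation and 16 at involution. At lactation 4 of the 10 had an unadjusted p under 0.05, all positive, beside 2.38% of all genes, and 5 had knockouts all above controls, beside 2.89% of all genes. Tek, one of these 5, passed the filter only through the knockouts, and Adm2 only through the controls, so the counts are a description and support nothing. Leaving out 1 library at a time, the count at an unadjusted p under 0.05 ran from 0 (without knockout M43767) to 5 (without control M42186) positive genes. The genes with knockouts all above controls were Vegfb, Flt1, Kdr, Nrp1 and Tek, while Adm2 had knockouts all below controls. Kdr, Nrp1 and Adm2 were named after their values were seen, and the 3 genes with the smallest p are given with values. Tek, the angiopoietin receptor, was 0.781 to 0.974 FPKM in controls and 1.55 to 2.29 in knockouts, and no test of it is given. Vegfb was 4.26 to 4.64 FPKM in controls and 5.98 to 7.32 in knockouts (0.53 ± 0.19, SE, limma, adjusted p = 0.998). Flt1, a VEGF receptor, was 0.535 to 1.35 FPKM in controls and 1.65 to 2.41 in knockouts (0.61 ± 0.23, adjusted p = 0.998).

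Marker sums of vessels lay apart beside these partners at lactation. The summed FPKM of 10 endothelial markers, Kdr among them, was 41.1 to 53.1 in controls and 57.0 to 75.9 in knockouts. Of these markers 5 of 10 were apart and higher, beside 2.89% of all genes, and none was at 0 in every library. Past the adjusted threshold (limma) were 0 of 10, beside 0.0105% of all genes. Over all genes 51.2% were positive in lactation knockouts, and the other marker lists were mixed. Positive were 4 of 9 luminal epithelial markers tested (median -0.11), 3 of 6 of skeletal muscle, 1 of 2 of neutrophils and 0 of 1 of keratinocytes. For myoepithelium it was 6 of 7, for macrophages 4 of 5 and for erythrocytes 3 of 4. Of adipocyte markers 11 of 11 were positive (median 0.77, 3 apart and higher), with sums of 1337 to 3134 FPKM in controls and 1876 to 2667 in knockouts. Of fibroblast markers 7 of 7 tested were positive (median 0.73, 1 apart and higher), with sums of 49.9 to 138 and 137 to 150. None of the markers of these 2 lists passed the adjusted threshold. The part of these tissues in the partner genes was not tested. Vegfa, the ligand, overlapped between the same groups. At involution the endothelial sums overlapped (289 to 410 and 293 to 453 FPKM). Of the 16 partners tested there 0 had groups apart, beside 7.09% of all genes, and 2 had an unadjusted p under 0.05 (limma), beside 6.84%. Their median was 0.11 (-0.03 without control M43914).

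Of 7 relatives of NDRG1 and BNIP3, 5 were tested at lactation with a median of -0.06, which was 0.20 without control M44175. At lactation 1 of the 5 had an unadjusted p under 0.05 (limma), a positive difference with overlapping groups, beside 2.38% of all genes. That count was 0 without knockout M43767. Ndrg3 was 3.20 to 4.00 FPKM in lactation controls and 4.15 to 4.45 in knockouts (0.30 ± 0.19, SE, limma, adjusted p = 0.998). Its knockouts all lay above the controls, as in 2.89% of all genes. At involution all 7 were tested and positive, beside 51.8% of all genes, from 0.03 to 1.07 with a median of 0.20. Every one overlapped between the genotypes. Without knockout M43767, 5 of 7 were positive with a median of 0.17. Bnip3l is also on the list of other HIF targets. Ndrg1 itself was at -0.40 at that stage.

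**Figure D4:**
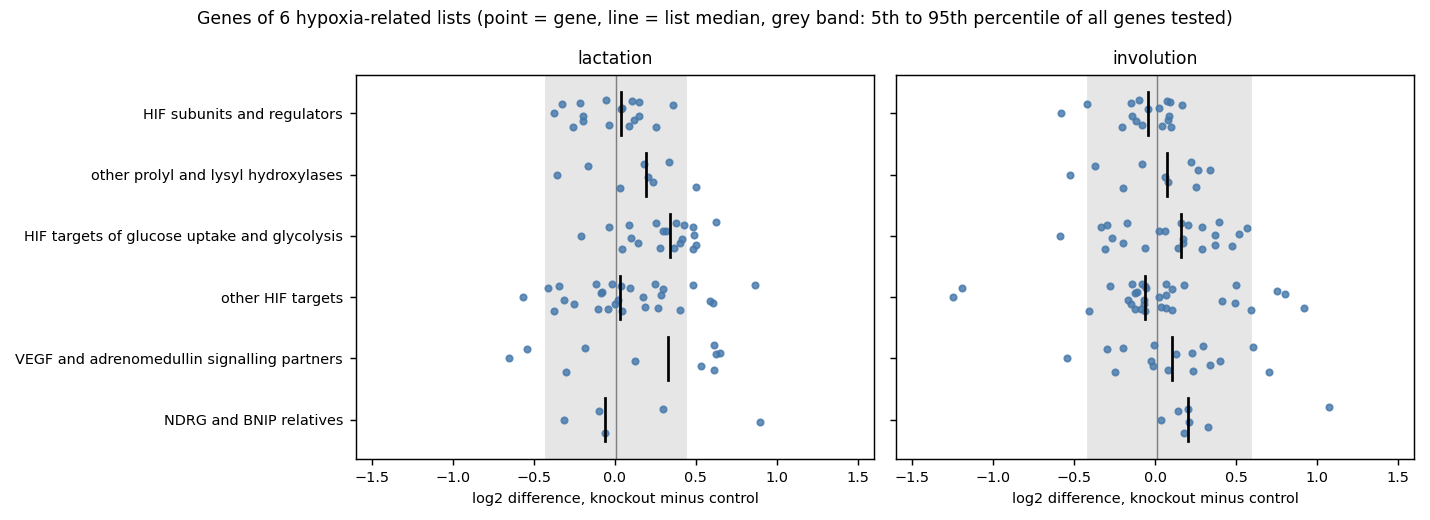
Log2 difference of knockout minus control (horizontal axis) for every gene tested in the 6 lists, at lactation (left) and involution (right), with a black line at each list's median and a grey band from the 5th to the 95th percentile of all genes tested. The glycolysis list is centred at 0.34 at lactation, and Angptl4 is one of the 2 points near -1.2 among the other targets at involution.

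The genes whose pattern was most like that of Egln3 were sought over 13 libraries among 9464 genes tested at both stages, with log2 values centred on each table's mean. The 5 highest Pearson coefficients were 0.92 for Trf, 0.88 for Medag, 0.88 for Gm6644, 0.86 for Dus2 and 0.86 for Ehd3. The libraries share depth and tissue make-up, and the coefficients hold the involution values by which Egln3 was chosen. The coefficients are therefore a description. Trf, the iron carrier transferrin, was listed at 0 in all 3 involution controls and stood between 2293 and 7718 FPKM in involution knockouts. It was 14159 to 20571 FPKM in lactation controls and 6952 to 15257 in lactation knockouts. An exact 0 in these tables can be a failed estimate, so the likeness of Trf rests on values that may not be levels. Medag, known from adipocyte differentiation, was 4.45 to 6.46 FPKM in involution controls and 7.71 to 12.2 in knockouts. Ehd3, an endocytic trafficking gene, was 4.79 to 6.51 FPKM in involution controls and 8.70 to 14.2 in knockouts. Among the 10 genes, the coefficients with Egln3 were 0.55 for Hif1a, 0.50 for Adm, 0.27 for Egln1, 0.23 for Egln2, 0.20 for Bnip3, 0.01 for Vegfa, -0.04 for Epas1 and -0.49 for Ndrg1.

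Marker sums of other cell types are given beside Egln3 at involution, whose values chose it, and the part of cell make-up in the Egln3 values was not tested. No marker of any list passed the adjusted threshold (limma), beside 0.0719% of all genes. Knockouts all above controls, counted below as apart and higher, were seen in 2.67% of all genes. The myoepithelial sum of 7 markers was apart, at 238 to 394 FPKM in controls and 451 to 522 in knockouts, with 6 of 7 markers positive (median 0.40) and 1 apart and higher. The adipocyte sum of 11 markers was 4435 to 8794 FPKM in controls and 4771 to 17209 in knockouts, with 11 of 11 positive (median 0.64) and 0 apart. The fibroblast sum of 8 markers was 200 to 464 FPKM in controls and 327 to 874 in knockouts, with 8 of 8 positive (median 0.79) and 1 apart and higher.

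The skeletal muscle sum of 7 markers was 68.7 to 1317 FPKM in controls and 14.1 to 5107 in knockouts, with 5 of 7 positive (median 0.05). None of the markers of these 4 lists was at 0 in every library of the stage. Macrophage sums were 235 to 318 FPKM in controls and 202 to 585 in knockouts, with 7 of 9 positive (median 0.37) and 1 apart and higher. Neutrophil sums were 56.0 to 235 FPKM in controls and 35.4 to 437 in knockouts, with 2 of 4 tested positive (median -0.05). Erythrocyte sums were 64.4 to 962 FPKM in controls and 87.4 to 2113 in knockouts, with 0 of 4 tested positive (median -0.60). Luminal epithelial sums were 13688 to 35357 FPKM in controls and 12377 to 28126 in knockouts, with 4 of 10 tested positive (median -0.03). Skin keratinocyte sums were 1.76 to 3.64 FPKM in controls and 2.99 to 4.69 in 3 knockouts, and 305 in knockout M43767. Of the keratinocyte markers 2 of 2 tested were positive.

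**Figure D5:**
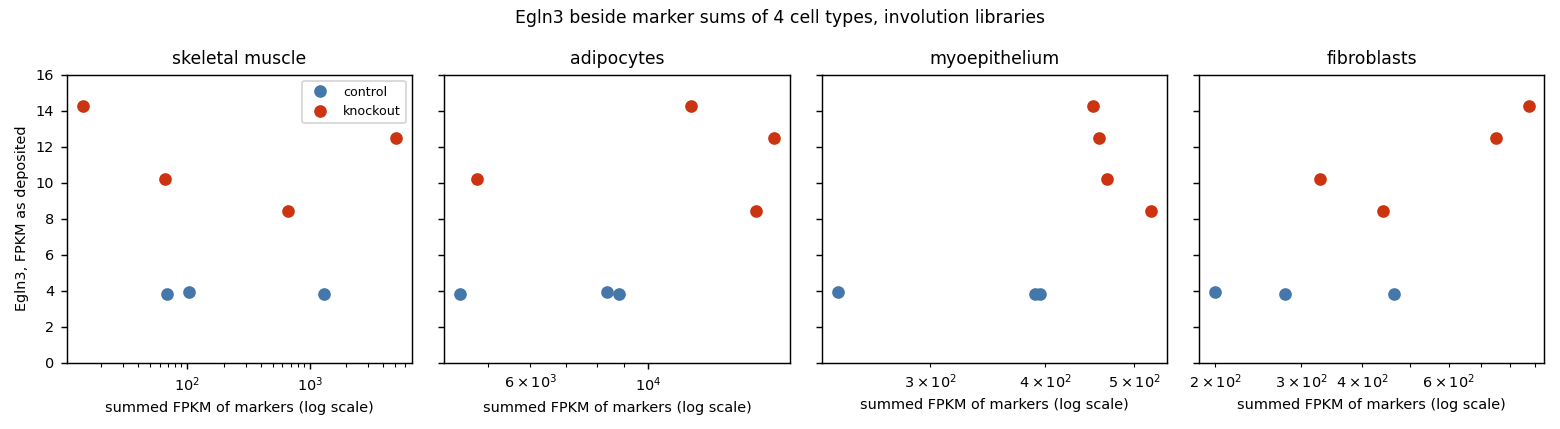
FPKM of Egln3 (vertical axes, from 0) against the summed FPKM of the markers of 4 cell types (horizontal axes, log scale) in the 7 involution libraries, controls in blue and knockouts in red. Marker sums of knockouts and controls overlap for muscle, adipocytes and fibroblasts and are apart for myoepithelium (451 to 522 against 238 to 394), and the vertical values are those by which Egln3 was chosen.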

How the data were processed

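RNA sequencing was measured in 13 libraries of mouse mammary gland. The authors deposited 1 table of FPKM for each stage, in the build mm9 and with CASAVA, cutadapt and TopHat per the submitters' processing notes. The program that made FPKM, its scaling and its annotation were not given in the sources used here. Groups, stages and mouse numbers came from the titles.

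Here each library's FPKM were divided, within a table, by a median-of-ratios factor (genes at 1 FPKM or more throughout), then put on the log2(FPKM + 1) scale, which understates changes at low levels. A gene was tested if 3 or more libraries of the fit reached 1 FPKM. Tests were two-sided and made with limma 3.58.1 (trend) in R 4.3.3. P-values were adjusted by Benjamini-Hochberg across every gene tested, and 0.05 was the threshold. The stages were joined in 1 fit of 13 libraries for the difference of the knockout effects. Log2 errors are standard errors, and FPKM errors are standard deviations. The fits and the depth estimate were tested on simulated data.

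Fragment counts were not given in the sources used here. Relative depth came from the steps of low values, whose pairs fell on small whole-number ratios in 70.9% of 27125 cases at lactation and in 69.5% of 33942 cases at involution, within 0.02 on the log2 scale. Depth per gene is unknown, so no counting intervals are given.

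The 10 genes, the 6 pathway lists and the 10 marker lists were chosen with earlier results of these data known. Named were all 10 genes, Jak1, the 5 genes most like Egln3, and in each list the genes past the threshold or else up to 3 with the smallest p among those whose groups did not overlap. Promoters are those of RefSeq (GRCm38.p6), and gene overlaps come from a reference gene annotation, while the deposited values use mm9. Alternatives were another pseudocount, no filter, other scalings, robust and weighted fits, a joint fit, leaving out genes listed at 0 in a whole group, and leaving out each library. A block on the mouse number, and the lists' counts without single libraries, were added after seeing the data.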

Additional observations from a re-analysis of the deposited data

How the results depend on the processing

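Alternatives were run for 21 results of the genes other than Ankrd37, and none gave an adjusted p under 0.05 where a test was made (limma). For the difference of the effects these covered Bnip3, Epas1 and Ndrg1 only. With further genes named above, 495 of 520 alternatives over 33 gene results kept the sign, while 25 turned it in 12 results. The median over all genes stayed between -0.04 and 0.06. With array weights the lactation log2 differences of Egln1 and Ndrg1 were -0.0159 and -0.22, and the involution difference of Epas1 was 0.0029. Without rescaling the lactation difference of Egln2 was -0.037. That of Jak1 was 0.0073 with a pseudocount of 0.1 and 0.0542 with upper-quartile rescaling.

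Leaving out 1 library at a time, the lactation differences ran from -0.0327 to 0.28 for Egln1, -0.10 to 0.14 for Egln2, -0.0093 to 0.30 for Egln3, -0.0106 to 0.27 for Hif1a, -0.0422 to 0.34 for Vegfa, -0.96 to 0.0778 for Bnip3, -0.0349 to 0.49 for Ndrg1 and -0.41 to 0.22 for Jak1. At involution they ran from -0.019 to 0.34 for Egln1, -0.0433 to 0.18 for Egln2, -0.19 to 0.15 for Epas1 and -0.0137 to 0.30 for Vegfa.

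Over all genes, 1 passed at lactation, against 2 with a pseudocount of 0.1, 2 in the joint fit, 9 with array weights, 0 without genes listed at 0 in a whole group (226 at an unadjusted p under 0.05) and 0 to 3 without 1 library. At involution 9 passed, against 14 with upper-quartile rescaling, 14 with robust moderation, 20 with array weights, 27 in the joint fit, 1 without genes listed at 0 in a whole group and 2 to 9 without 1 library. For the difference of the effects 10 passed, against 16 with array weights, 1 without genes listed at 0 in a whole group and 6 to 12 without 1 library. The cause was not tested.

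Within a stage no mouse number is shared, and across stages 1 number is shared by the controls and 1 by the knockouts. Chosen after seeing the data, a fit with the mouse number as a replicate block (limma, estimated correlation 0.697 from 2 shared numbers) gave 20 genes past the threshold for the difference of the effects. In it Bnip3 was at 0.72, Epas1 at -0.52 and Ndrg1 at -0.42, none past the threshold. The labels do not say that a number marks 1 animal. The limits are few libraries, unknown fragment counts, whole tissue, and tables whose scaling was not given in the sources used here.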
